A study of Mus musculus with 6 samples.

Results

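Snai1, Snai2, Twist1, Twist2, Zeb1, Zeb2 and Prrx1, 7 transcription factors of the mesenchymal state, and Grhl2, Ovol1 and Esrp1, 3 regulators of the epithelial state, were followed across 6 RNA-seq libraries of partially reprogrammed mouse cells. The 10 genes were picked by symbol from the 20325 genes that the files list, and all 10 were found. The cells were 2 pre-iPSC lines, pre3 and pre2-2, made from fibroblasts of OG2 mice (a mixed strain, 1/2 129SVJ, 3/8 C57B6 and 1/8 CBA), which carry a reporter of Pou5f1 expression, and were grown at passage 10 in mES medium with LIF. Each line was transfected with an siRNA against Tet1 (siTet1), transfected with a control siRNA, or left untransfected, and all 3 treatments, the untransfected one included, received vitamin C at 50 µg/ml. One library was made per line and treatment, which gives 2 libraries a treatment and 3 a line. Timing is recorded differently in different labels. One text places vitamin C 16 h after transfection and extraction 32 h after that, and another gives 36 h of vitamin C within 48 h of transfection. A characteristic reads Tet siRNA where the titles read Tet1, and the source is named as embryonic fibroblasts where the design names pre-iPSCs. No label says whether the libraries of a line were separate cultures or whether a line is a single clone, so the p-values below measure only the spread between these libraries, which may be technical.

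Snail, Zeb and Twist proteins are the classical drivers of the epithelial-to-mesenchymal transition. The zinc-finger factors Snai1, Snai2, Zeb1 and Zeb2 bind E-box motifs in front of epithelial genes such as Cdh1, the gene of the adhesion protein E-cadherin, and repress them, whereas the basic helix-loop-helix factors Twist1 and Twist2 and the homeodomain factor Prrx1 act in mesenchymal and connective tissue programmes. Grhl2 activates genes of epithelial junctions, Ovol1 is a zinc-finger repressor that opposes Zeb factors, and Esrp1 is an RNA-binding protein that sets epithelial splice forms. When fibroblasts are reprogrammed they pass through the opposite change, from mesenchymal to epithelial, and pre-iPSCs are cells that have stopped on the way.

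The E-box letters and the CpG dinucleotides of the promoters are shown first, because 5 of the mesenchymal factors that were lower in pre3 have an entry in the RefSeq promoter table (build GRCm38.p6; 250 bases before to 50 bases after the start site), and because Tet1 acts on methylated CpG sites. These 5 genes were Snai1, Twist1, Twist2, Zeb2 (4 start sites, not printed) and Prrx1. Entries on a single chromosome were left out of the search, and no window of Zeb1, Snai2, Grhl2, Ovol1 or Esrp1 was examined. The windows are therefore no comparison of members lower in pre3 with the others. The first line shows Snai1 (chr2:167537945-167538244, + strand) with its E-box CACCTG, which begins at position -126 from the start site, in capitals. The others show Twist1 (chr12:33957421-33957720, + strand), Twist2 (chr1:91801211-91801510, + strand) and Prrx1 (chr1:163313601-163313900, - strand) with every CpG in capitals.
Snai1: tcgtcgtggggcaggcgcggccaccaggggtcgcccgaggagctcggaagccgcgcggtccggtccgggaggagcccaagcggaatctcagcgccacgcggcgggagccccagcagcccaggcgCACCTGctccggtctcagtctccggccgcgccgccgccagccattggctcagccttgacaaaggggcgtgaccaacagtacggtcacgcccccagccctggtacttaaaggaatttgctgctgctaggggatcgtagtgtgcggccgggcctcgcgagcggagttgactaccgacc
Twist1: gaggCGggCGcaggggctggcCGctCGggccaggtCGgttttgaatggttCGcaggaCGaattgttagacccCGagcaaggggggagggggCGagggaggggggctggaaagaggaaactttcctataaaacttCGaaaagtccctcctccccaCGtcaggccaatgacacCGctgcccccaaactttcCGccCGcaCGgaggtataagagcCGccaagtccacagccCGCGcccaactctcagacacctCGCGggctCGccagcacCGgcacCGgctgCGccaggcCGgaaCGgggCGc
Twist2: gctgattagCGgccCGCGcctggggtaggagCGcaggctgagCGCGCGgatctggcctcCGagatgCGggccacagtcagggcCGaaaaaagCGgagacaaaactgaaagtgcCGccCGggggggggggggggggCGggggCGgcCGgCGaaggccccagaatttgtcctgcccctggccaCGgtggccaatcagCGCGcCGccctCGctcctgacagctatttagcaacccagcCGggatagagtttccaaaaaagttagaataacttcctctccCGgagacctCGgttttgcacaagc
Prrx1: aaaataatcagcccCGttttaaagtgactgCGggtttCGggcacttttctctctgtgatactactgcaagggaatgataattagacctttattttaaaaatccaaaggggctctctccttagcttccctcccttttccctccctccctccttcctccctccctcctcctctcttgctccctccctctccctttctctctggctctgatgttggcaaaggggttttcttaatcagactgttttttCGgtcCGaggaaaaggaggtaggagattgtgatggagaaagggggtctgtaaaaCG
The Snai1 window held 1 match to the general E-box CANNTG, searched on both strands, and that match was CACCTG, the form to which Snail and Zeb zinc fingers bind; no CANNTG was in the windows of Twist1, Twist2, Prrx1 or Zeb2. Among 32851 mouse promoter windows of this length, 72.3% held CANNTG, 20.2% held CACCTG or its reverse complement CAGGTG, and 16.3% held CAGCTG. CpG counts were 34 in Snai1, 27 in Twist1, 25 in Twist2 and 6 in Prrx1, against a median of 7 over all windows. By CpG count Snai1 was at percentile 93.0 of all windows, Twist1 at 85.8, Twist2 at 83.1 and Prrx1 at 47.9, and the 4 windows of Zeb2 held 8 to 19 CpG. These are descriptions of the letters; methylation and binding were not measured here.

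The libraries held 1868640 to 2582803 expected counts, and 13506 to 14128 genes had a count in a library. A floor of 3 counts corresponds to 1.16 to 1.61 CPM (counts scaled to the library) by library totals alone, whereas the other CPM values also carry scaling factors of 0.982 to 1.01; all counting intervals and floors cover counting error only. Tet1, the target of the siRNA, had 159 CPM in pre3 and 154 CPM in pre2-2 with siTet1, against 251 and 246 CPM with control siRNA and 205 and 250.2 CPM without transfection (log2 fold change -0.67 against control siRNA, SE 0.13, edgeR quasi-likelihood test, adjusted p = 0.00430). The sign held under every alternative run, and the call was lost with DESeq2 (adjusted p = 0.0988), with no replicate block, without the pre2-2 siTet1 library (0.316) and without the pre3 control siRNA library (0.229). Among 12 markers of pluripotent cells, Pou5f1 stood at 8677 to 9358 TPM (transcript share, rescaled from the deposited fraction) in pre3 and at 1630 to 1826 TPM in pre2-2. Over the 6 libraries Tdgf1 had 503 to 974 TPM, Sox2 307 to 410 TPM, Dppa5a 37.4 to 389 TPM and Fgf4 41.2 to 89.9 TPM. Sall4 had 14.6 to 36.4 TPM and Utf1 4.63 to 27.5 TPM. Zfp42 reached at most 6.53 TPM, Nanog 5.60 TPM, Esrrb 0.709 TPM and Lin28a 0.611 TPM, and Dppa3 had no count in any library. The summed level of 10 fibroblast markers was 314 to 447 TPM in pre3 and 651 to 1654 TPM in pre2-2. In these bulk libraries, fewer cells of a type and less RNA per cell cannot be told apart.

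By level per transcript length (TPM), the 10 regulators ran in the order Esrp1, Prrx1, Zeb1, Snai1, Twist2, Twist1, Snai2, Zeb2, Ovol1 and Grhl2. Esrp1 averaged 26.8 ± 7.22 TPM, Prrx1 24.8 ± 18.5 TPM, Zeb1 18.2 ± 3.58 TPM and Snai1 17.7 ± 7.14 TPM (SD over the 6 libraries). Twist2 averaged 14.0 ± 9.92 TPM, Twist1 11.4 ± 9.60 TPM, Snai2 7.47 ± 4.63 TPM and Zeb2 4.15 ± 3.50 TPM over the same libraries. Every pair of neighbours in this order had overlapping ranges except Zeb2 (1.17 to 8.63 TPM) and Ovol1 (0.336 to 1.03 TPM), so the list splits into 8 genes that were clearly transcribed and 2 that were near the floor. Within a line the order was not the same: Prrx1 was first in pre2-2 and 4th in pre3, and Zeb1 was 2nd in pre3 and 5th in pre2-2.

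**Figure D1:**
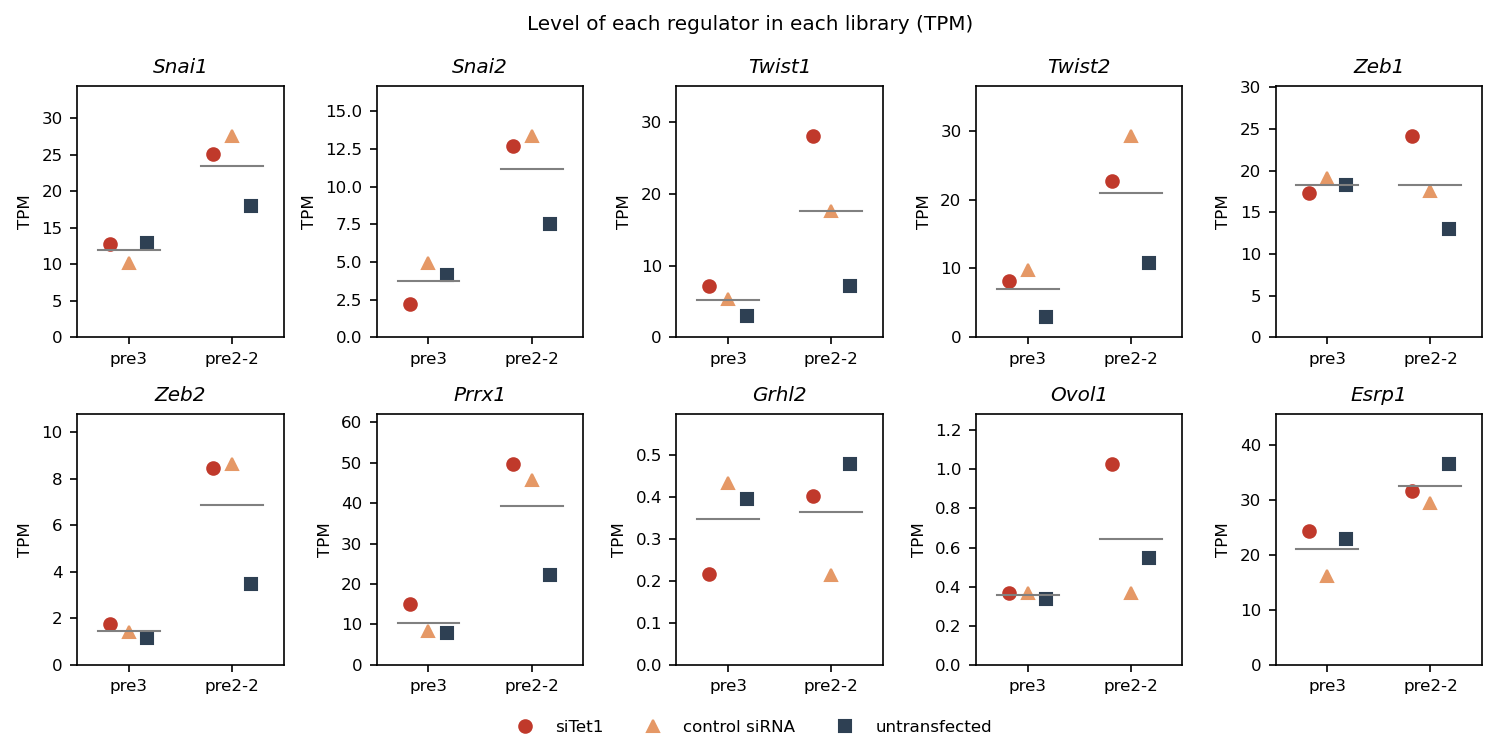
Level of each of the 10 regulators in TPM (y axis, linear, from 0) in the 3 libraries of pre3 and the 3 of pre2-2, with 1 point per library, coloured by treatment, and a grey line at the mean of the line's 3 libraries. Snai1, Snai2, Twist2, Zeb2, Prrx1 and Esrp1 have all 3 pre3 points below all 3 pre2-2 points, Zeb1 has the lines interleaved, and Grhl2 and Ovol1 stay at or under 1.03 TPM.

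The 2 lowest genes were both epithelial regulators. Grhl2, the activator of junction genes, had 1, 2 and 2 counts in the siTet1, control siRNA and untransfected libraries of pre3, against 2, 1 and 3 counts in those of pre2-2. Ovol1, the zinc-finger repressor, had 1 count in each library of pre3, against 3, 1 and 2 counts in the siTet1, control siRNA and untransfected libraries of pre2-2. All 12 of these values were at or under the floor of 3 counts, so neither gene was tested and no difference was detectable at this depth. Esrp1, the splicing regulator, was the one epithelial member with a level that could be compared, and by mean TPM it stood above about 71.7% of all genes in the files.

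The main contrast among these regulators lay between the lines. Of the 8 genes that passed the filter on low counts, 7 were lower in pre3 than in pre2-2 at an adjusted p under 0.05 (edgeR quasi-likelihood test, line and treatment in the model, all 6 libraries), and 15.8% of the 11048 genes tested were lower by the same rule (30.2% differed in either direction). The filter asked for about 10 counts in at least 2 libraries, and Snai2 and Twist1 met it through pre2-2 alone, so that a low level in pre3 was part of how they came to be tested and their calls add nothing to this count. Of the other 6, 5 were lower. With no filter on low counts the adjusted p was 0.00129 for Snai2 and 3.09e-05 for Twist1. Of the 6 other than Snai2 and Twist1, 5 did not overlap between the lines in CPM, and Zeb1 did. Those 5 had all 3 pre3 libraries below all 3 pre2-2 libraries, which held for 18.2% of all genes tested. With 3 libraries a side, an exact permutation test on a single gene that ignores the matched treatments cannot go under 0.1. One that keeps them has a higher floor, so the p-values below rest on the spread shared across genes.

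Both Snail factors had lower TPM in pre3. Snai1, which represses Cdh1 through E-boxes, had 12.8, 10.2 and 12.9 TPM in the siTet1, control siRNA and untransfected libraries of pre3, against 25.1, 27.5 and 17.9 TPM in those of pre2-2. The lines did not overlap, and the difference was narrowest without transfection. Its log2 fold change was -0.87 (SE 0.27, adjusted p = 0.0160), a level 1.82-fold lower in pre3. Snai2, its close relative of neural crest and mesenchyme, had 2.20, 4.93 and 4.15 TPM in the siTet1, control siRNA and untransfected libraries of pre3, against 12.7, 13.3 and 7.50 TPM in those of pre2-2. Again no pre3 library reached the lowest pre2-2 library, and the log2 fold change was -1.45 (SE 0.40, adjusted p = 0.00732). These values rest on 4 to 9 counts per library in pre3 and 19 to 26 in pre2-2. Snai2 met the filter through pre2-2 alone, so its call is no support beyond that of Snai1. Both calls depended on the test and on single libraries: with DESeq2 the adjusted p was 0.202 for Snai1 and 0.102 for Snai2, and without the pre3 siTet1 library it was 0.0525 for Snai1 and 0.103 for Snai2. Snai1 made up 62.8 to 68.3% of the summed Snail TPM in pre3 and 55.4 to 67.9% in pre2-2.

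The Twist factors and Prrx1 showed the same direction with larger differences. Twist1, the helix-loop-helix factor of cranial and limb mesenchyme, had 7.21, 5.27 and 2.99 TPM in the siTet1, control siRNA and untransfected libraries of pre3, against 28.1, 17.6 and 7.13 TPM in those of pre2-2. The lines overlapped by a narrow margin, since the siTet1 library of pre3 lay just above the untransfected library of pre2-2. At matched treatment pre3 was lower each time, and the log2 fold change was -1.65 (SE 0.36, edgeR adjusted p = 0.000812). Twist1 met the filter through pre2-2 alone, so its call is not counted as support. Twist2, its paralogue in dermis, had 8.15, 9.83 and 2.98 TPM in the siTet1, control siRNA and untransfected libraries of pre3, against 22.7, 29.2 and 10.8 TPM in those of pre2-2. No library of pre3 reached any of pre2-2, with a log2 fold change of -1.51 (SE 0.35, adjusted p = 0.00165). An antisense gene, Gm29100, covers 46.5% of the exon bases of Twist2 in the GENCODE annotation, and the counting is not stated to use strand, so reads of the pair cannot be told apart. Prrx1, the homeodomain factor of limb and craniofacial mesenchyme, had 15.0, 8.46 and 7.83 TPM in the siTet1, control siRNA and untransfected libraries of pre3, against 49.7, 45.7 and 22.2 TPM in those of pre2-2. Prrx1 had the best-supported difference of the 10, with 38 to 67 counts per library in pre3 and 137 to 241 in pre2-2, a log2 fold change of -1.83 (SE 0.17) and an adjusted p of 3.39e-09.

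The Zeb factors parted. Zeb2 had 1.76, 1.41 and 1.17 TPM in the siTet1, control siRNA and untransfected libraries of pre3, against 8.48, 8.63 and 3.46 TPM in those of pre2-2. Its highest pre3 library was below its lowest pre2-2 library, and its log2 fold change of -2.12 (SE 0.26, adjusted p = 4.78e-07), or 4.35-fold lower in pre3, was the largest among the 8. Zeb1, the partner repressor of Cdh1, had 17.4, 19.1 and 18.3 TPM in the siTet1, control siRNA and untransfected libraries of pre3, against 24.1, 17.5 and 13.0 TPM in those of pre2-2. The pre3 values sat inside the pre2-2 range, and no difference was called (log2 fold change 0.12, SE 0.17, adjusted p = 0.657); without the untransfected library of either line the sign turned, to -0.11. Zeb1 therefore made up 90.8 to 94.0% of the summed Zeb TPM in pre3 and 67.0 to 79.0% in pre2-2. Opposite-strand genes cover 3.27% of the Zeb2 exon bases and 1.93% of those of Zeb1.

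Esrp1, the epithelial splicing regulator, was lower in pre3 as well, so it did not move opposite to the mesenchymal factors. It had 24.3, 16.1 and 22.9 TPM in the siTet1, control siRNA and untransfected libraries of pre3, against 31.6, 29.4 and 36.5 TPM in those of pre2-2. The lines did not overlap, and the log2 fold change was -0.55 (SE 0.15, adjusted p = 0.00631). With DESeq2 its adjusted p was 0.118, and without the control siRNA library of pre3 it was 0.125. The 7 mesenchymal factors summed to 64.5, 59.2 and 50.4 TPM in the siTet1, control siRNA and untransfected libraries of pre3, against 171, 160 and 82.1 TPM in those of pre2-2. Esrp1 divided by that sum was 0.377, 0.272 and 0.455 in the siTet1, control siRNA and untransfected libraries of pre3, against 0.185, 0.184 and 0.445 in those of pre2-2, so the values of the lines lay closer in this ratio without transfection than with it.

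**Figure D2:**
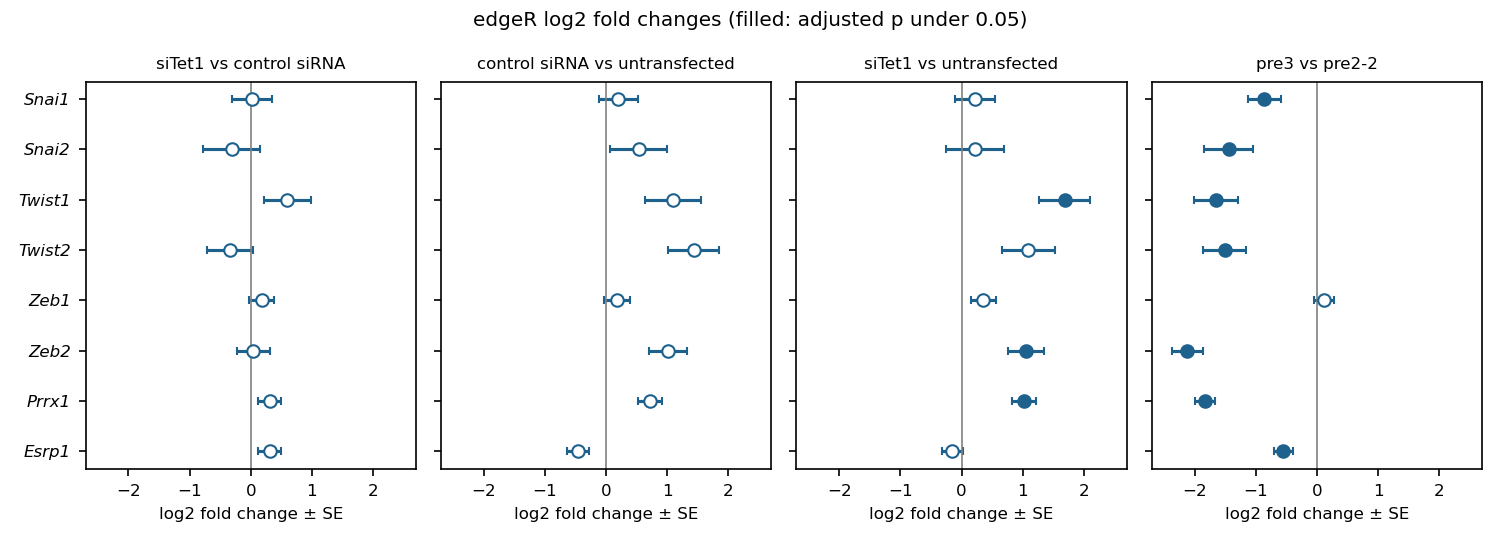
Log2 fold changes (x axis, with bars of 1 SE) of the 8 tested regulators in 4 comparisons, from edgeR on all 6 libraries; filled points passed an adjusted p under 0.05. No point is filled for siTet1 against control siRNA or control siRNA against untransfected, Twist1, Zeb2 and Prrx1 are filled for siTet1 against untransfected, and all but Zeb1 are filled and negative for pre3 against pre2-2. In that last comparison Snai2 and Twist1 met the filter on low counts through pre2-2 alone.

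Markers of some other cell types moved with the line, and those of others overlapped. Of 7 fibroblast markers that met the filter in each line all 7 were lower in pre3, with Col1a1, the main collagen chain, at a log2 fold change of -1.64 (SE 0.12, adjusted p = 6.03e-11). The 7 mesenchymal factors summed to 14.4 to 16.1% of the summed fibroblast marker TPM in pre3 and to 9.65 to 12.8% in pre2-2. The summed level of the epidermal keratinocyte markers was 147 to 280.3 TPM in pre3 and 646 to 1263 TPM in pre2-2, and the 3 of them that met the filter in each line were lower in pre3. Endothelial markers summed to 12.1 to 15.4 TPM in pre3 and 43.6 to 52.9 TPM in pre2-2. Of 6 pluripotent cell markers that met the filter in each line, 3 were higher in pre3 (Pou5f1, Dppa5a and Tdgf1) and 2 lower (Fgf4 and Sall4). Of all genes tested 15.8% were lower and 14.4% higher. The part of these markers in the differences of the regulators was not tested.

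Silencing of Tet1 is the comparison the study is named for, and against control siRNA no member was called, beside 1.58% of all genes tested. By edgeR 0 of the 8 reached an unadjusted p under 0.05, beside 1196 of the 11048 genes tested. DESeq2 and limma-voom also called 0. The log2 fold changes ran from -0.34 for Twist2 to 0.60 for Twist1, with a median of 0.11 over the 8 and 0.00 over all genes. Twist1 was nearest to a difference in size, with 7.21 and 28.1 TPM in the siTet1 libraries of pre3 and pre2-2, against 5.27 and 17.6 TPM in their control siRNA libraries. Both siTet1 values were above the control of their line, yet the log2 fold change of 0.60 had an SE of 0.38 and an adjusted p of 0.623. Prrx1 had 15.0 and 49.7 TPM with siTet1 in pre3 and pre2-2, against 8.46 and 45.7 TPM with control siRNA (log2 fold change 0.31, SE 0.19, adjusted p = 0.593). Esrp1 had 24.3 and 31.6 TPM with siTet1 in the same lines, against 16.1 and 29.4 TPM with control siRNA (log2 fold change 0.31, SE 0.19, adjusted p = 0.596). Within pre3 the ratio of siTet1 to control siRNA was 1.76 for Prrx1 (95% counting interval 1.16 to 2.69) and 1.51 for Esrp1 (1.07 to 2.15), whereas in pre2-2 it was 1.07 (0.887 to 1.30) and 1.06 (0.814 to 1.39). For Zeb1 the ratio was 0.911 (0.671 to 1.24) in pre3 and 1.37 (1.03 to 1.82) in pre2-2. The intervals of the other tested members held no change in either line. With 2 libraries a side an exact permutation test that ignores the line cannot go under 0.333, and one that keeps it has a higher floor.

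Cdh1, the direct repression target of Snail and Zeb factors, did rise with siTet1, to 57.8 and 113 TPM in pre3 and pre2-2, against 24.1 and 61.2 TPM with control siRNA (log2 fold change 1.04, adjusted p = 0.000133). Among its repressors no difference was called: Snai1 differed by 0.02 (SE 0.32), Snai2 by -0.31 (SE 0.46), Zeb1 by 0.18 (SE 0.20) and Zeb2 by 0.04 (SE 0.27) on the log2 scale. These SEs, the largest that of Snai2, leave room for changes of a size that this depth could not show. The part of the repressors in the rise of Cdh1 was not tested. Of 21 tested epithelial genes that Snail and Zeb factors repress, 2 rose, Cdh1 and the keratin gene Krt19 (log2 fold change 0.72), and none fell, where 1.15% of all genes tested rose and 0.434% fell. Of 24 tested mesenchymal effector genes 2 rose, the matrix genes Tnc and Col3a1, and 1 fell, the matricellular gene Thbs1. Among 12 tested splicing regulators that act with or against Esrp1 only Mbnl1 passed, and it fell by 0.72 on the log2 scale. These calls were not equally firm: of 14 alternatives Cdh1 and Tnc lost theirs in 1 each, Thbs1 in 4, Col3a1 and Mbnl1 in 5 each and Krt19 in 6, and without the pre2-2 siTet1 library Krt19 was at 0.37. The list that changed most was the interferon response, of which 12 of 14 tested genes fell with siTet1 (median log2 fold change -1.49), to a summed level of 574 and 683 TPM in pre3 and pre2-2, against 745 and 1671 TPM with control siRNA. Of 7 tested pluripotent cell markers 2 rose, Dppa5a (1.63) and Tdgf1 (0.72), and of 4 tested keratinocyte markers 3 rose, including Krt14 (0.90). The part of these changes in the results was not tested.

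For transfection itself, all 7 mesenchymal factors had positive log2 fold changes over the 6 libraries, as 50.6% of all genes tested had, and none was called. Within pre3 the ratio of control siRNA to untransfected was 0.742 for Snai1, 0.986 for Zeb1, 1.04 for Snai2 and Prrx1 and 1.13 for Zeb2. It was 1.66 for Twist1 and 3.12 for Twist2, and all 7 counting intervals held no change. Without the untransfected pre2-2 library Snai1 was at -0.25, Snai2 at -0.26 and Zeb1 at -0.17 (log2). Against untransfected cells the control siRNA called 0 of the 8 members by edgeR (1.48% of all genes were called), DESeq2 called 0 and limma-voom called 1. By edgeR 5 of the 8 had an unadjusted p under 0.05, beside 1016 of the 11048 genes tested. The median log2 fold change over the 8 was 0.63, against 0.00 over all genes tested. Prrx1 had 8.46 and 45.7 TPM with control siRNA in pre3 and pre2-2, against 7.83 and 22.2 TPM in untransfected cells (log2 fold change 0.72, SE 0.20, adjusted p = 0.0827). Its ratio was 1.04 (95% counting interval 0.645 to 1.67) in pre3 and 1.98 (1.58 to 2.47) in pre2-2, and a difference between the lines was not called. Zeb2 had 1.41 and 8.63 TPM with control siRNA in pre3 and pre2-2, against 1.17 and 3.46 TPM in untransfected cells (log2 fold change 1.01, SE 0.30, adjusted p = 0.120). Twist2 had 9.83 and 29.2 TPM with control siRNA, against 2.98 and 10.8 TPM in untransfected cells of the same lines (log2 fold change 1.43, SE 0.42, adjusted p = 0.109). Both lines had more Twist2 after transfection, but the untransfected pre3 library held only 4 counts of it. Esrp1 was the one member with a negative value, at 16.1 and 29.4 TPM with control siRNA against 22.9 and 36.5 TPM in untransfected cells (log2 fold change -0.46, SE 0.18, adjusted p = 0.364).

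With siTet1 set against untransfected cells, 3 of the 8 members were called, all higher, where 6.55% of all genes tested were called and 4.92% were higher. Twist1 had 7.21 and 28.1 TPM in the siTet1 libraries of pre3 and pre2-2, against 2.99 and 7.13 TPM in the untransfected ones. The siTet1 library was the highest of its line in both lines, and the log2 fold change was 1.69 (SE 0.42, adjusted p = 0.0149). The ratio of Twist1 was 3.69 (95% counting interval 2.02 to 7.12) in pre2-2. In pre3 it was 2.28, with an interval that held no change (0.730 to 8.37). Prrx1 had 15.0 and 49.7 TPM in the siTet1 libraries of pre3 and pre2-2, against 7.83 and 22.2 TPM in the untransfected ones, a log2 fold change of 1.03 (SE 0.20, adjusted p = 0.00175). It was higher in both lines beyond counting error, with ratios of 1.83 (95% counting interval 1.21 to 2.80) in pre3 and 2.12 (1.71 to 2.63) in pre2-2. Zeb2 had 1.76 and 8.48 TPM in the siTet1 libraries of pre3 and pre2-2, against 1.17 and 3.46 TPM in the untransfected ones, a log2 fold change of 1.06 (SE 0.30, adjusted p = 0.0330). In pre3 its counting interval held no change (ratio 1.41, 0.607 to 3.40), and in pre2-2 the ratio was 2.35 (1.58 to 3.53). The 3 calls were lost with DESeq2 (adjusted p of 0.482 for Twist1, 0.113 for Prrx1 and 0.785 for Zeb2) and without the untransfected library of pre2-2 (0.489, 0.275 and 0.857 in the same order of genes). The siTet1 against untransfected and the control siRNA against untransfected comparisons share their untransfected libraries, so their values are not independent.

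**Figure D3:**
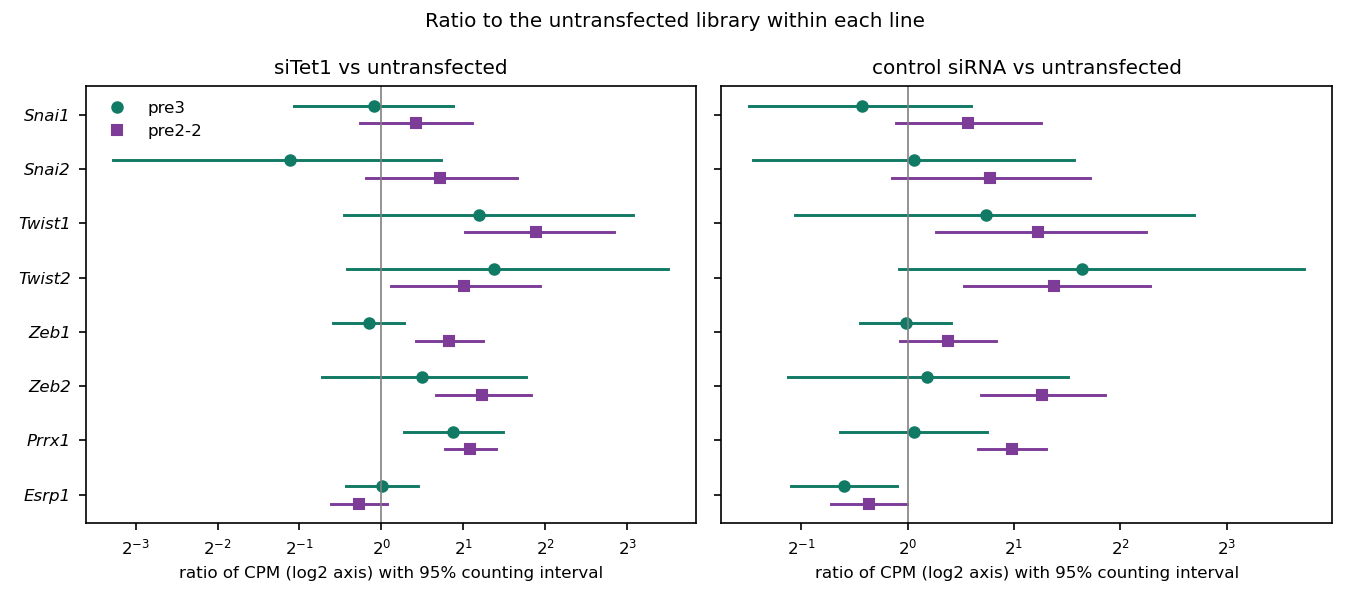
Ratio of CPM to the untransfected library of the same line (x axis, log2 scale, with exact 95% counting intervals) for the 8 tested regulators, siTet1 on the left and control siRNA on the right, with pre3 above pre2-2 for each gene. In pre2-2 the intervals of Twist1, Twist2, Zeb2 and Prrx1 lie above 1 in both panels, and that of Zeb1 in the left panel only. In pre3 only the interval of Prrx1 with siTet1 lies above 1. The intervals of Esrp1 with control siRNA lie below 1 in both lines.

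Other genes moved in the same comparisons. Of 24 mesenchymal effector genes 13 were higher with control siRNA than in untransfected cells and none were lower (1.38% and 0.0996% of all genes tested), among them Thbs1 (log2 fold change 1.65), the collagen crosslinking enzyme Lox (1.51) and the actin-binding gene Tagln (1.16). Of 8 tested fibroblast markers 4 were higher, and the summed level of that list was 410 and 1654 TPM with control siRNA in pre3 and pre2-2, against 314 and 651 TPM in untransfected cells. Of 14 tested genes of the interferon response 12 were higher, with Irf7 at a log2 fold change of 5.05. With siTet1 against untransfected cells, 18 of the 24 effector genes and 5 of the 8 fibroblast markers were higher and none of either list were lower, where 1.63% of all genes were lower. The part of these changes in the values of Twist1, Zeb2 and Prrx1 was not tested.

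Whether the lines responded differently was tested by an interaction of line with siTet1, in which the other 2 libraries of a line served as its controls, and by one of line with transfection, in which the 2 transfected libraries of a line were pooled. Neither interaction called any of the 8 members, beside 0% of all genes for siTet1 and 0.00905% for transfection. By unadjusted p the interaction with siTet1 was under 0.05 for 1 member, Zeb1 (difference of log2 fold changes, pre3 minus pre2-2, -0.78, SE 0.33, unadjusted p = 0.0357, adjusted p = 1.00), and 270 genes in all had such a p. Zeb1 had 17.4 TPM with siTet1 in pre3, against 19.1 and 18.3 TPM in its controls, and 24.1 TPM with siTet1 in pre2-2, against 17.5 and 13.0 TPM in its controls. For transfection no member was under an unadjusted p of 0.05, beside 603 genes in all, and DESeq2 and limma-voom called none in either interaction. The difference of log2 fold changes was -0.52 (SE 0.44) for Prrx1 and -0.90 (SE 0.55) for Zeb2.

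Relatives of the 3 epithelial members were set beside them. Grhl3, the grainyhead paralogue of the epidermal barrier, had 43.4, 32.4 and 33.7 TPM in the siTet1, control siRNA and untransfected libraries of pre3, against 10.7, 8.04 and 9.37 TPM in those of pre2-2. The lines were well apart, with pre3 higher (log2 fold change 2.03, SE 0.19, adjusted p = 4.54e-09), so the grainyhead family was transcribed although Grhl2 was at the floor. Grhl1, the other paralogue, overlapped between the lines and did not pass the test (log2 fold change 0.07). Esrp2, the paralogue of Esrp1 with overlapping function, had 19.6, 20.9 and 17.1 TPM in the siTet1, control siRNA and untransfected libraries of pre3, against 11.5, 11.1 and 11.2 TPM in those of pre2-2. It was higher in pre3 (log2 fold change 0.83, SE 0.21, adjusted p = 0.00348; 0.114 with DESeq2), opposite in direction to Esrp1. Esrp1 was 43.5 to 57.2% of the summed Esrp TPM in pre3 and 72.5 to 76.5% in pre2-2, while the sum itself overlapped between the lines at 37.0 to 43.9 TPM in pre3 and 40.6 to 47.8 TPM in pre2-2. Ovol2, the relative of Ovol1, was chosen here after its values were seen and met the filter through pre2-2 alone, so no test of it is given. It had 3, 1 and 0 counts in the siTet1, control siRNA and untransfected libraries of pre3, against 12, 11 and 12 counts in those of pre2-2.

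Across the wider lists, epithelial regulators and mesenchymal factors leaned in different directions between the lines, with exceptions on both sides. Of 9 epithelial regulators other than the members that met the filter in each line, 7 were higher in pre3 and none lower, where 14.4% of all genes tested were higher and 15.8% lower. The epithelial ETS factor Ehf was among the higher ones (log2 fold change 2.26, edgeR adjusted p = 7.42e-12), and Klf4 was the least of them at 0.22. The member Esrp1 went the other way, at -0.55. Of 12 other mesenchymal transcription factors that met the filter in each line, 6 were lower in pre3, 2 were higher and the rest were not called. Prrx2, the paralogue of Prrx1, had 12, 3 and 8 counts in the siTet1, control siRNA and untransfected libraries of pre3, against 56, 52 and 18 counts in those of pre2-2. It met the filter through pre2-2 alone. With siTet1 against untransfected cells its log2 fold change was 1.56 (adjusted p = 0.0330), which was 0.084 and not called without the untransfected pre2-2 library. Runx2, the osteoblast factor, was at -2.22 and Hmga2, a chromatin protein that acts upstream of Snai1 and Twist1, at -1.58 between the lines. Of 7 tested partners and inhibitors of Twist factors 4 were lower in pre3, the inhibitors Id1 (-1.27), Id2 (-1.06) and Id3 (-1.36) and the partner Tcf4 (-1.10), and 1 was higher, beside the same 15.8% and 14.4% of all genes.

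**Figure D4:**
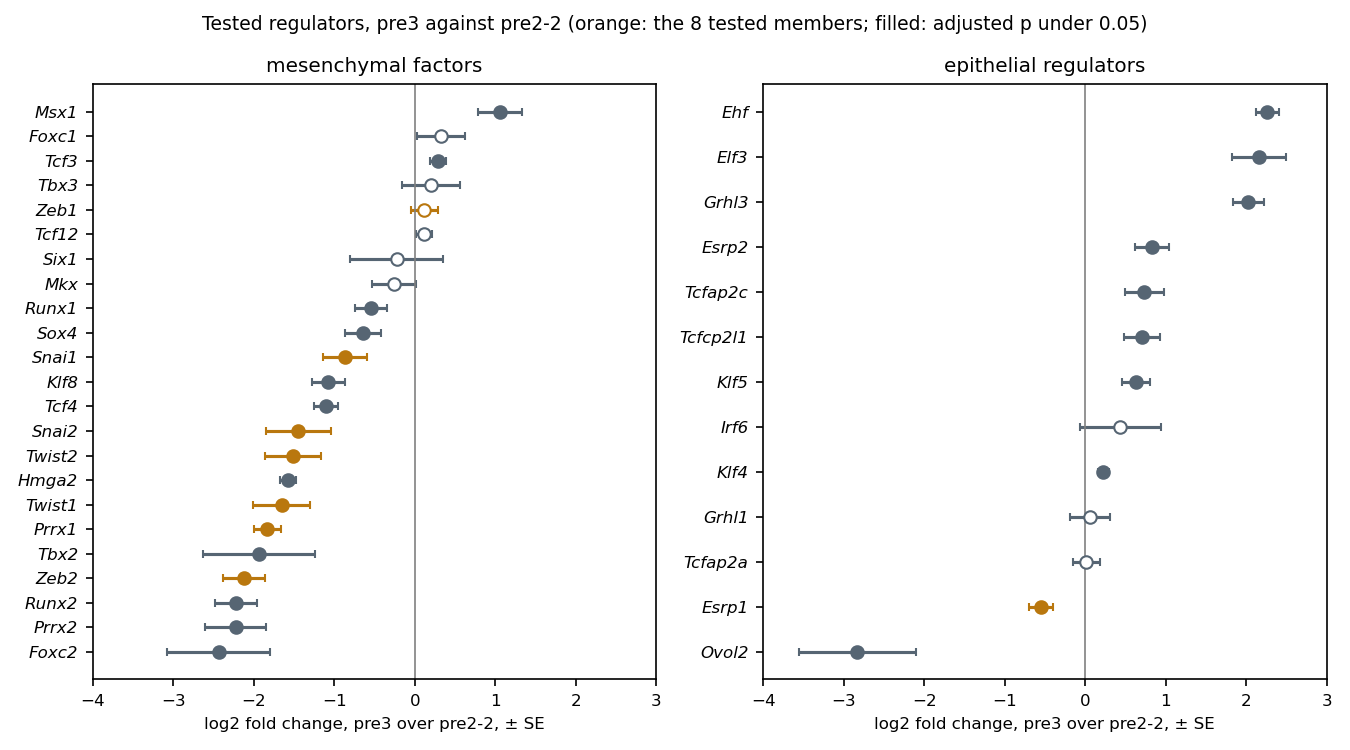
Log2 fold change of pre3 over pre2-2 (x axis, with bars of 1 SE) for the tested mesenchymal factors (left) and epithelial regulators (right), members in orange and other list genes in grey; filled points passed an adjusted p under 0.05. Zeb1 lies near 0 at 0.12 and Esrp1 (-0.55) on the left. Snai2, Twist1, Prrx2, Foxc2, Tbx2 and Ovol2 met the filter on low counts through pre2-2 alone and Elf3 through pre3 alone. The filter favoured the side on which these genes lie, so their positions are not read. Of the other list genes that met it in each line, 6 of 12 mesenchymal factors were lower in pre3 and 2 higher. Of 9 such epithelial regulators 7 were higher and none lower.

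The genes these regulators act on, and those that act on them, completed the comparison of the lines. Over all genes tested, 15.8% were lower in pre3 and 14.4% higher, and each list below stands against these shares. Of 24 mesenchymal effector genes 22 were lower in pre3 and 1 higher, with Tagln at a log2 fold change of -2.96, Thbs1 at -2.81 and Acta2, smooth muscle actin, at -2.75. Of 15 epithelial genes repressed by Snail and Zeb factors that met the filter in each line, 7 were lower in pre3 as well, one of them Esrp1 itself, and 1 was higher. By edgeR Cdh1 was at -1.11 (adjusted p = 6.21e-08) and Epcam, an epithelial adhesion gene, at -1.24 (adjusted p = 1.95e-07). Of their repressors Snai1 and Zeb2 were lower in pre3 and Zeb1 was not called. Snai2 met the filter through pre2-2 alone, so its call is not counted here. The corepressors of Snail and Zeb factors stayed nearly level: of 15 tested 1 was lower, Jub (-0.79), and 1 higher, Ehmt2 (0.30), with a median of 0.05. Of 14 tested regulators of Snail protein stability 2 were lower, the kinases Pak1 (-1.10) and Lats2 (-0.74), and 2 higher, which is about the share over all genes. Of 15 genes of the TGF-beta input that met the filter in each line 5 were lower and none higher, among them the ligand Tgfb1 (-1.76).

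For each tested regulator, the 2 genes closest to it over the 6 libraries were picked out of 1937 to 8943 genes. The best of so many over 6 values have a high r by the search itself, so no link is read from it. By Pearson's r of log2(CPM + 1), given as a description over libraries that share 2 lines, the closest to Prrx1 were Myof and Plau (r = 0.997 each), and the closest to Zeb2 were Loxl1, a collagen crosslinking enzyme (0.999), and Anxa3 (0.998). Closest to Twist1 were Kdelr3 (0.999) and Cited2 (0.996), and closest to Twist2 were Zfp503 (0.998) and St3gal1 (0.997). Snai1 was nearest to Golim4 and Adam22 (0.995 each), Snai2 to P4ha3 and Sytl2 (0.997 each), Zeb1 to Kctd13 (0.991) and Sdc4 (0.978), and Esrp1 to Hace1 (0.994) and Mospd1 (0.985). Among the members themselves, r was 0.985 between Zeb2 and Prrx1 and 0.922 after the mean of each line was removed, and 0.938 and 0.914 between Zeb2 and Twist1 likewise. Zeb1 stood apart over the 6 libraries, with r of 0.01 to Prrx1 and 0.05 to Zeb2, but within the lines these were 0.56 and 0.71. Esrp1 followed Zeb2 at 0.61 over the 6 libraries and at -0.40 within the lines.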

How the data were processed

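RNA was extracted with Trizol and 6 libraries were prepared with a TruSeq RNA kit, per the labels' protocols. The authors deposited, per gene symbol, an expected count, RSEM's estimate of the reads of a gene with no normalization, and a fraction, the estimated share of transcripts; RSEM 1.1.21 and mm9 are named in the submitters' processing notes, and the aligner is not given in the sources used here. In the deposited files 18.7 to 21.4% of the expected counts per library were not whole (tolerance 0.005). A series-wide table with 6 value columns was not used: its values are those same fractions, and 1 of its column names fits no sample.

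For testing, values were rounded to whole counts and passed to edgeR 4.0.16 under R 4.3.3. TMM factors were 0.982 to 1.01. The filter (filterByExpr, grouped by treatment, minimum count 10) left 11048 genes, whose two-sided quasi-likelihood p-values were adjusted together by the Benjamini-Hochberg method. The model held line and treatment over all 6 libraries (2 residual degrees of freedom, 23.2 prior ones, common dispersion 0.00755). Adjusted p-values come from this edgeR fit, except where DESeq2 (1.42.0) or limma (3.58.1) stands beside them. A gene was called, and said to have risen, fallen or been higher or lower, at an adjusted p under 0.05. SE was taken as the size of the log2 fold change divided by the root of its F statistic. TPM is the deposited fraction rescaled, without its own test; CPM uses TMM factors. Ratios within a line carry exact 95% counting intervals.

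The replicate numbers stand for the lines (1 for pre2-2, 2 for pre3), so the line in the model is the replicate block. Libraries of a line correlated across genes at 0.953 to 0.975 and those of different lines at 0.884 to 0.938 (log2 CPM), and the pairing comes from the cell line that the titles name.

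The 10 members and the 17 gene lists (243 entries, 242 found in the files) were chosen with earlier results of these data known. Named list genes are, per list and comparison, at most the 4 called genes with the smallest adjusted p; genes of like pattern are the 2 with the highest Pearson r and a log2 range of at least 0.5 of the member's. At most 0.964% of a member's 50-base transcript words also occur in another gene of the reference. Alternatives were other scalings, no filter, DESeq2, limma-voom, no block, fewer libraries and each library left out.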

Additional observations from a re-analysis of the deposited data

How the results depend on the processing

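Over all results and alternatives run, 1857 values kept direction and side of the threshold, 276 lost a call, 12 gained one, 34 turned sign and 46 counts moved by over 1.5 times; the cause was not tested beside what the construction of a setting shows (fewer samples, more genes tested). Depth limits Grhl2 and Ovol1 (at most 3 counts per library) and, in pre3, Snai2 and Twist2 (from 4 counts). No p adjusted within the list is given. The number of members called was 0 for siTet1 against control siRNA under every alternative run. For control siRNA against untransfected cells, 0 became 1 with library totals alone, 2 with no filter, 1 with limma-voom, 1 with only the 4 libraries compared and the replicate block, and 0 to 3 when each library was left out (3 without the untransfected pre3 library). For siTet1 against untransfected cells, 3 became 0 with DESeq2, 0 with no replicate block, and 0 to 4 when each library was left out (0 without the untransfected pre2-2 library, 1 without the siTet1 pre2-2 library). With only the 4 libraries and the replicate block, Zeb2 lost its call there (adjusted p = 0.0508). Between pre3 and pre2-2, 7 became 4 with DESeq2 and 4 to 7 when each library was left out, 4 without the pre2-2 control siRNA library; with no replicate block Twist2 (adjusted p = 0.0516) and Esrp1 (0.0602) lost their calls. For 10 members the ratio of the mean level in pre3 to that in pre2-2 moved little in TPM or in CPM on library totals. The yardstick was the SD of that ratio over the 3 treatments. This SD includes treatment differences and is no replicate spread, so the check was a weak one. Over all genes, 175 calls between siTet1 and control siRNA became 292 with no filter, 24 with DESeq2, 0 with no replicate block, 613 with the 4 libraries and the replicate block, 114 with both controls pooled and the block, and 34 to 632 when each library was left out. The 164 calls between control siRNA and untransfected cells became 259 with no filter, 32 with DESeq2, 0 with no replicate block and 27 to 733 when each library was left out. The 724 calls between siTet1 and untransfected cells became 85 with DESeq2, 0 with no replicate block and 172 to 1900 when each library was left out. The 3335 calls between the lines became 1429 with DESeq2, 2061 with no replicate block and 2152 to 3631 when each library was left out. For the interaction of line with siTet1, 0 became 7 with no filter and 0 to 5 when a library was left out. For that of line with transfection, 1 became 5 with DESeq2, 0 with limma-voom and 0 to 4 when a library was left out. The siTet1 interaction without a siTet1 library, and the transfection interaction without an untransfected library, could not be fitted. No sign that turned belonged to a called value. For siTet1 against control siRNA, Twist2 was 0.24 with both controls pooled and the replicate block, and over left-out libraries Snai1 ran from -0.27 to 0.48, Snai2 from -1.36 to 0.0496, Zeb1 from -0.22 to 0.55 and Zeb2 from -0.14 to 0.53 (log2). For control siRNA against untransfected cells, Snai1 ran from -0.28 to 0.48, Snai2 from -0.26 to 0.88, Zeb1 from -0.17 to 0.52 and Tet1 from -0.0415 to 0.30. For siTet1 against untransfected cells, Snai2 was -0.00402 with DESeq2, and over left-out libraries Snai1 ran from -0.24 to 0.48, Snai2 from -0.85 to 0.58, Zeb1 from -0.0531 to 0.72 and Esrp1 from -0.32 to 0.0663. Between the lines, Zeb1 ran from -0.11 to 0.39 and Tet1 from -0.13 to 0.0392. In the siTet1 interaction Snai1 was 0.0114 with library totals alone, 0.00669 with no filter and 0.00538 with DESeq2; over left-out libraries Snai1 ran from -0.31 to 0.26, Twist1 from -1.09 to 0.13, Twist2 from -0.65 to 1.20, Zeb2 from -0.81 to 0.45 and Prrx1 from -0.23 to 0.75. In the transfection interaction Esrp1 ran from -0.27 to 0.35.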
